A study of Mus musculus with 18 samples.

Results

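Glycolysis enzymes and hypoxia response genes were followed in mouse ovaries. The list held 33 genes, namely 15 enzymes of glycolysis and lactate formation, 12 other genes of the hypoxia response, 4 glucose and lactate transporters and 2 regulators of glycolytic flux. A gene was represented by the brightest of the probe sets annotated to its symbol alone, by mean signal over all arrays. Of the 33 genes, 31 were measured that way, among 18193 genes in all, and Gpi1 and Eno1 had no such probe set in the annotation used. The 31 genes had 71 such probe sets, and 29 passed the filter on low signals and were tested among 12713 genes. The transporter Slc16a3 and the ankyrin repeat gene Ankrd37 did not pass it.

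Total RNA of ovaries was hybridised to Affymetrix arrays, 3 arrays labelled as biological replicates in each of 6 groups, 18 in all. The groups were Pik3cd-/- and Pik3cd+/- females 44 hours after a single injection of 10 IU of PMSG, a gonadotropin that acts mainly like FSH on the ovary. The other groups were Pik3cd-/- and Pik3cd+/- females given 3 injections of 0.03 ml of E2 (oestradiol) 24 hours apart and sampled at 72 hours from the first, and untreated Pik3cd-/- and Pik3cd+/- females. All were on a C57B6J/S129 background and 21 days old untreated or at the first injection. The Pik3cd product, p110 delta, is 1 of the catalytic subunits of phosphoinositide 3-kinase. The genotype comparison is between no working copy and 1 copy, with no wild-type group among the 6, and the treated mice had no vehicle-injected counterpart, so that a treatment effect includes the injections and the hours that passed. The labels do not say whether ovaries of several mice were pooled, and the loss of Pik3cd is not tied by the labels to any 1 cell type.

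Glycolysis splits glucose into pyruvate in the cytosol, and lactate dehydrogenase turns pyruvate into lactate. Granulosa cells of the follicle are known to be glycolytic and to supply the oocyte, which uses glucose poorly, with pyruvate. Under low oxygen the prolyl hydroxylases of the Egln family no longer mark HIF-1 alpha for breakdown, and HIF-1 then binds a short core, most often ACGTG, in promoters of most glycolysis enzymes, of glucose transporters and of genes such as Vegfa, Adm and Bnip3. Growth factor and gonadotropin signals through phosphoinositide 3-kinase are known to raise HIF-1 alpha protein and glycolysis at normal oxygen too. The arrays measure RNA and not protein, flux or oxygen.

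The median intensity of an array ran from 48.4 to 50.9, and arrays correlated with the others of their group at a mean r of 0.969 to 0.993. On the clearest of 6 Pik3cd probe sets, picked after its values were seen, the signal was 19.1 to 28.8 in Pik3cd-/- and 61.4 to 73.1 in Pik3cd+/- arrays. Markers of granulosa, theca and oocyte cells were present in all groups. Of the arrays that stood apart in marker levels of other cells, 4 are called the 4 arrays below. Array 1 of Pik3cd+/- after PMSG and array 2 of untreated Pik3cd+/- did so in the 1 tested oviduct gene. Array 2 of untreated Pik3cd-/- was low in granulosa genes. Array 2 of Pik3cd-/- after E2 was low in the 2 tested adipocyte genes and in macrophage and smooth muscle genes. Array 3 of Pik3cd-/- after E2 (low oocyte and high adipocyte genes) and array 3 of Pik3cd+/- after PMSG (high granulosa genes) stood apart as well, and are called the 2 further arrays below. Array 1 of Pik3cd-/- after E2 was lower in granulosa genes than its mates (summed signal 20063, against 26336 and 26786) and is in neither set. Calls that ended without the 4 arrays, or without the 2 further ones, are named below. In bulk tissue, fewer cells of a type and less RNA per cell cannot be told apart. Differences below are on the log2(signal + 8.58) scale, ± SE of the limma model (3 arrays per group). "Called" means a limma p under 0.05 after adjustment over all 12713 genes, given as padj.

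Across the 6 groups the mean level of the glycolysis enzymes spread further than that of the other hypoxia genes and in a different order. The mean log2 level over the 13 tested enzymes was 9.88 ± 0.07 in Pik3cd-/- and 10.03 ± 0.17 in Pik3cd+/- ovaries after PMSG (mean ± SD, n = 3 each here and in the next sentences). It was 9.59 ± 0.04 in Pik3cd-/- and 9.90 ± 0.09 in Pik3cd+/- ovaries after E2, and 9.67 ± 0.04 in Pik3cd-/- and 9.79 ± 0.09 in Pik3cd+/- ovaries untreated. Over the 11 tested hypoxia genes the mean was 8.46 ± 0.06 in Pik3cd-/- and 8.56 ± 0.05 in Pik3cd+/- ovaries after PMSG. It was 8.49 ± 0.13 in Pik3cd-/- and 8.49 ± 0.05 in Pik3cd+/- ovaries after E2, and 8.62 ± 0.07 in Pik3cd-/- and 8.46 ± 0.08 in Pik3cd+/- ovaries untreated. So the enzymes were highest after PMSG in both genotypes and lowest in Pik3cd-/- ovaries after E2, and in each state their mean was lower in Pik3cd-/- ovaries. The mean of the hypoxia genes had no such order and was highest in untreated Pik3cd-/- ovaries. That mean includes Stc1, with log2 changes after PMSG of -1.75 in Pik3cd-/- and -1.56 in Pik3cd+/- ovaries. Of the 11 hypoxia genes, 7 in Pik3cd-/- and 8 in Pik3cd+/- ovaries were higher after PMSG than untreated. Their median change in Pik3cd+/- ovaries was 0.33, near the 0.34 of the enzymes. In Pik3cd-/- ovaries it was 0.083, against 0.23 for the enzymes. Among the enzymes, 7 of 13 had their highest group mean in Pik3cd+/- ovaries after PMSG and 8 of 13 their lowest in Pik3cd-/- ovaries after E2. Array 3 of Pik3cd+/- after PMSG had a mean log2 enzyme level of 10.22, against 9.95 and 9.91 on its mates. Its summed enzyme signal was 25838, against 20052 and 20343 on its mates and 21255 to 22439 in Pik3cd-/- ovaries after PMSG. The part of array 3 in these highest group means was not tested. The highest group of the 11 hypoxia genes was spread over 5 groups.

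**Figure D1:**
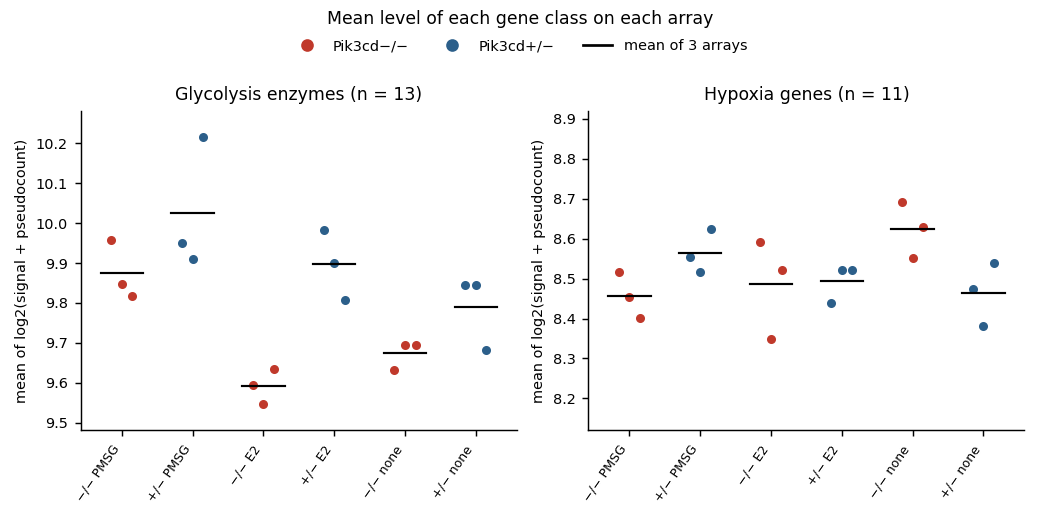
Mean log2(signal + 8.58) of the 13 glycolysis enzymes (left) and the 11 hypoxia genes (right) on each of the 18 arrays. Points are arrays, black bars are means of 3 arrays, and both axes span the same number of log2 units. Pik3cd-/- ovaries after E2 have the lowest enzyme mean of the 6 groups, 9.59, and array 3 of Pik3cd+/- after PMSG the highest, 10.2.

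In Pik3cd+/- ovaries several enzymes were higher after PMSG. Of 13 enzymes, 5 were called higher after PMSG than untreated and none lower: Aldoa (aldolase A), Pgk1 (phosphoglycerate kinase), Pgam1 (phosphoglycerate mutase), Pkm (pyruvate kinase) and Ldha, the lactate dehydrogenase subunit that favours lactate formation. Tpi1 and Aldoc were not called (padj 0.0547 and 0.0744), nor was Ldhb, the other lactate dehydrogenase subunit, at -0.38 ± 0.13. Each of the 5 rises was small, between 0.35 and 0.43 on the log2 scale. Among the 11 hypoxia genes 1 was called higher, Ddit4, and 1 lower, Stc1, and none of the 5 tested transporters and regulators was called. That made 6 of 29 members higher and 1 lower, where 5.81% of all genes were called higher and 11.9% lower. The median change was 0.34 over the enzymes, 0.33 over the hypoxia genes and 0.22 over transporters and regulators, and -0.045 over all genes.

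Aldoa, which cleaves fructose 1,6-bisphosphate, read 3568, 3316 and 3401 after PMSG and 2815, 3089.5 and 3016 untreated in Pik3cd-/- ovaries. The Pik3cd+/- readings of Aldoa were 3272, 3362 and 4515 after PMSG and 2876, 2785 and 2672 untreated. After E2 the Aldoa signal was 2753, 2564 and 2826 in Pik3cd-/- and 3128, 3029 and 2803 in Pik3cd+/- ovaries. PMSG arrays thus lay above untreated arrays with no overlap in either genotype, and array 3 of Pik3cd+/- after PMSG lay well above its mates. The difference was 0.21 ± 0.09 in Pik3cd-/- ovaries (padj 0.252, not called) and the rise 0.40 ± 0.09 in Pik3cd+/- ovaries (padj 0.0106). All 5 tested Aldoa probe sets had the same sign in Pik3cd+/- ovaries, and 4 of them were called.

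Pgam1, which moves the phosphate of 3-phosphoglycerate, read 2195, 2011 and 2067 after PMSG and 1783, 1334 and 1759.5 untreated in Pik3cd-/- ovaries. The Pgam1 readings of Pik3cd+/- ovaries were 2139, 2429 and 2673 after PMSG and 1736, 1753 and 1853 untreated. After E2 they were 1434, 1699 and 1641 in Pik3cd-/- and 1935, 1915 and 1828 in Pik3cd+/- ovaries. The groups did not overlap between PMSG and untreated in either genotype. The Pgam1 difference of 0.37 ± 0.10 in Pik3cd-/- ovaries missed the threshold (padj 0.0692), and the rise in Pik3cd+/- ovaries was 0.43 ± 0.10 (padj 0.0123).

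Ldha read 2359.7, 2016 and 2134 after PMSG and 1773, 1578 and 1808 untreated in Pik3cd-/- ovaries. Pik3cd+/- ovaries had Ldha readings of 2564, 2502 and 3461 after PMSG and 2204, 2196 and 2161 untreated. Neither pair of Ldha groups overlapped, and the highest reading was again that of array 3. The Ldha difference was 0.33 ± 0.10 (padj 0.0955) in Pik3cd-/- ovaries, and the rise 0.36 ± 0.10 (padj 0.026) in Pik3cd+/- ovaries.

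Pgk1, which makes the first ATP of the later stage, read 2495, 2198 and 2325 after PMSG and 1922, 1701 and 2044 untreated in Pik3cd-/- ovaries. The Pik3cd+/- arrays gave 2483, 2424 and 3350.3 after PMSG and 2174, 2126 and 2088 untreated. After E2 the Pgk1 signal was 1791, 1759.9 and 1909.9 in Pik3cd-/- and 2297, 2212 and 2103 in Pik3cd+/- ovaries. PMSG arrays were above untreated ones throughout, by 0.31 ± 0.10 in Pik3cd-/- (padj 0.121) and 0.35 ± 0.10 in Pik3cd+/- ovaries (padj 0.0272). Pkm, the last enzyme before lactate, read 1609, 1544 and 1515 after PMSG and 1147, 1314 and 1178 untreated in Pik3cd-/- ovaries. The Pkm signal of Pik3cd+/- ovaries was 1348, 1566 and 2139 after PMSG and 1335, 1249 and 1195 untreated. After E2 it read 1109, 1084 and 1071 in Pik3cd-/- and 1539.6, 1262 and 1202 in Pik3cd+/- ovaries. Neither PMSG group overlapped with its untreated group. The Pkm difference was 0.36 ± 0.13 (padj 0.151) in Pik3cd-/- and 0.39 ± 0.13 (padj 0.046) in Pik3cd+/- ovaries.

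These calls did not weigh equally. Aldoa and Stc1 kept their calls in Pik3cd+/- ovaries when any 1 of the 18 arrays was left out. Pgam1 and Ddit4 lost theirs only without untreated Pik3cd+/- array 1 (padj 0.0523 and 0.0536). Pgk1 and Ldha lost theirs without any of the 3 untreated Pik3cd+/- arrays or without PMSG array 3 (padj up to 0.0804 and 0.0773), and also without the 4 arrays, without the 2 further ones and in a fit of their groups alone. Pkm lost its call without any of 12 arrays (padj up to 0.157 over all settings), without the 2 further arrays, with no filter, without the trend, in a fit of its groups alone, with the replicate block and with the probe set of highest variance. Without PMSG array 3, the changes were 0.26 for Aldoa, 0.20 for Pgk1, 0.21 for Ldha and 0.21 for Pkm, and 4 members were called. Without untreated array 1 or 3, 2 and 4 members were called. On PMSG array 3 the summed granulosa marker signal was 40403, against 25067 and 24586 on its mates, and its part in the enzyme readings was not tested.

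In Pik3cd-/- ovaries no enzyme was called after PMSG with all arrays, while 6 (Aldoa, Tpi1, Pgk1, Pgam1, Pkm and Ldha) were called higher without the 2 further arrays, which enter this comparison only through the shared estimate of the spread, where 7.52% of all genes were then called. With all arrays 12 of 13 differences were above 0, with a median of 0.23 against -0.015 over all genes. The difference between genotypes in the PMSG effect, tested as an interaction, was not called for any enzyme, at -0.20 ± 0.13 for Aldoa and between -0.059 and -0.027 for Pgam1, Pgk1, Pkm and Ldha. The 95% interval of the Pgk1 interaction ran from -0.35 to 0.26. Averaged over the genotypes, a comparison added after the values were seen, 7 of 13 enzymes were called higher after PMSG, where 8.46% of all genes were. They were Aldoa, Pfkp, Tpi1, Pgk1, Pgam1, Pkm and Ldha, with Pgam1 at 0.40 ± 0.07 (padj 0.00181) and Tpi1, triose phosphate isomerase, at 0.35 ± 0.08 (padj 0.00815). All these but Pfkp, which lost its call without any of 9 arrays, without the 4 arrays and with the mean of all probe sets, stayed called in every setting tried. Ldhb, the subunit that favours the return from lactate to pyruvate, was called lower in the same average, -0.31 ± 0.09 (padj 0.0285), where 15.6% of all genes were called lower. That Ldhb call ended without any of 7 arrays and without the 4 arrays together.

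**Figure D2:**
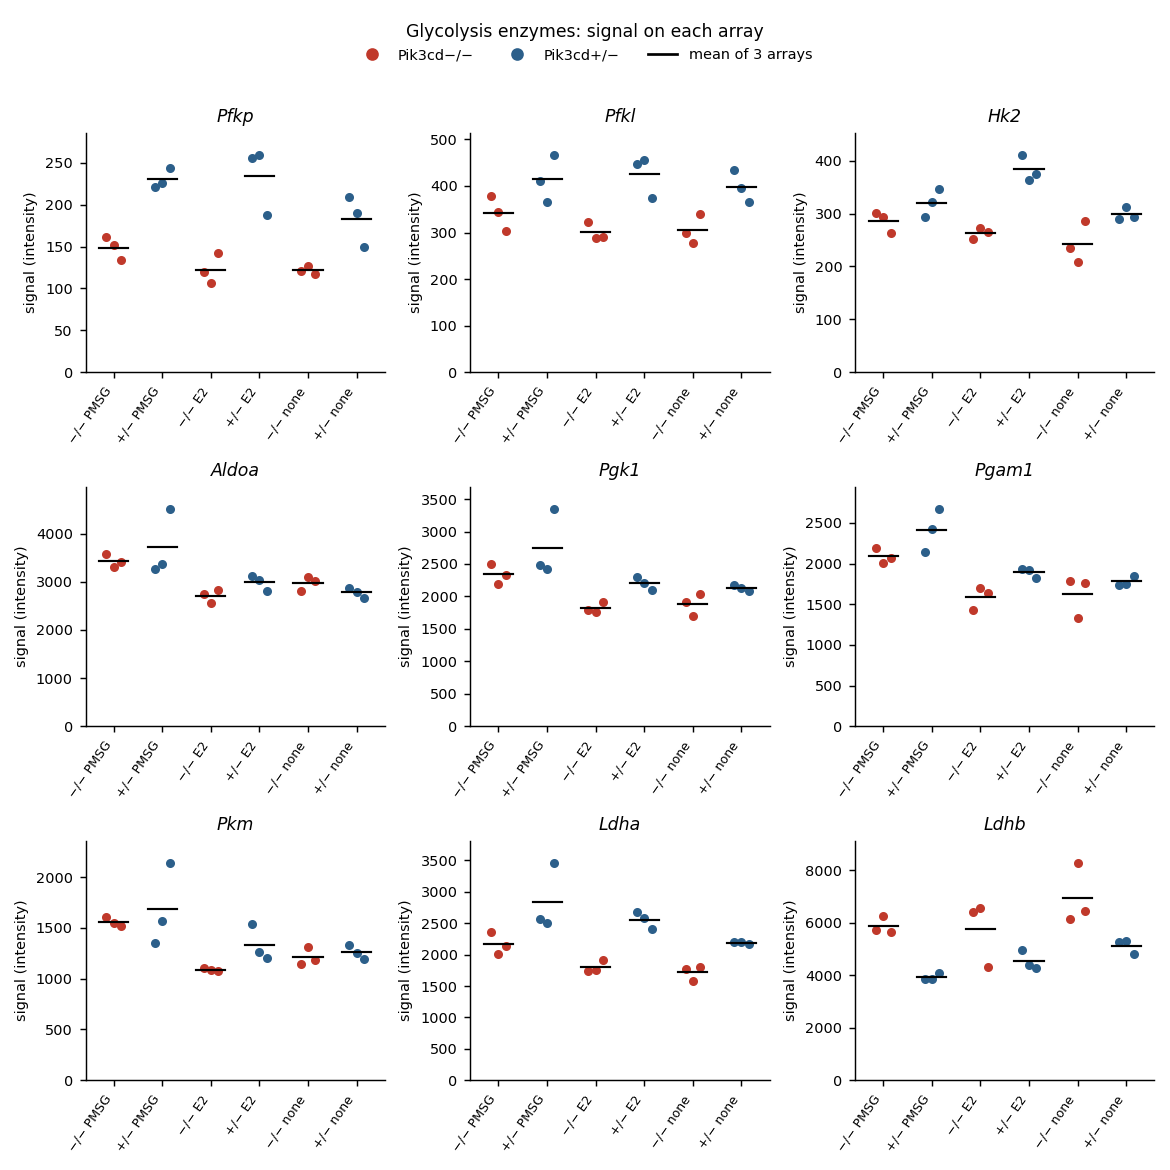
Signal (intensity units, axis from 0) of 9 glycolysis enzymes on each of the 18 arrays, with Pik3cd-/- in red, Pik3cd+/- in blue and black bars at means of 3 arrays. In Pfkp the red points lie below the blue ones in every state, in Ldhb they lie above except for array 3 after E2, and in Aldoa, Pgk1, Pgam1, Pkm and Ldha the PMSG points lie above the untreated ones of the same colour.

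Promoters of the members that moved with PMSG are shown because HIF-1 is known to bind the letters ACGTG. The 3 are those with the largest change among members called in Pik3cd+/- ovaries with a window that holds ACGTG on either strand. Stc1, which changed most of those called, had no window in the promoter set used. Ldha was added after its values were seen because 1 of its windows holds the most such sites, 3 separate ones. Where a gene had several windows, a window with the most sites is shown. Another window of Ldha and another of Aldoa held 0 sites. Sequences are from RefSeq on GRCm38.p6 and run 250 bases before to 50 after the annotated start, written 5′ to 3′ on the gene's strand. Capitals mark ACGTG or its reverse complement CACGT, and CACGTG holds both. The windows are chr10:59951721-59952020 on the minus strand for Ddit4, chr19:41911621-41911920 on the plus strand for Pgam1, chr7:126799129-126799428 on the minus strand for Aldoa and chr7:46845554-46845853 on the plus strand for Ldha.
Ddit4: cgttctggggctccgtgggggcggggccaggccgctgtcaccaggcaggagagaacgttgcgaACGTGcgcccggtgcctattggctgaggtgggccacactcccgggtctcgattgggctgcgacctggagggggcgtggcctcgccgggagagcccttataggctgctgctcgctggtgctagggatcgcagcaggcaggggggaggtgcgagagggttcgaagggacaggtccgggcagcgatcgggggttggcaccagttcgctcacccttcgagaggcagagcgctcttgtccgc
Pgam1: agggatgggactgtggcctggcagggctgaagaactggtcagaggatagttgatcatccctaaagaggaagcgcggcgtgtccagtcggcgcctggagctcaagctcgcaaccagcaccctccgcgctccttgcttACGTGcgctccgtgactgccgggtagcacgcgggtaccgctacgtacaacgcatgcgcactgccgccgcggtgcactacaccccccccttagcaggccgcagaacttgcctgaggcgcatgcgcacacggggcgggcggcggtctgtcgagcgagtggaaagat
Aldoa: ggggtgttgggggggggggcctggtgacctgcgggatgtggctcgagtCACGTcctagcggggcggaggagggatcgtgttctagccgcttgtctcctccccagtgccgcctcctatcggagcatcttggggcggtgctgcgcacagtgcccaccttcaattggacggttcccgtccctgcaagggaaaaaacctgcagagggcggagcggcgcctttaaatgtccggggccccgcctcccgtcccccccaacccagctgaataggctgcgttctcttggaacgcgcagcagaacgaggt
Ldha: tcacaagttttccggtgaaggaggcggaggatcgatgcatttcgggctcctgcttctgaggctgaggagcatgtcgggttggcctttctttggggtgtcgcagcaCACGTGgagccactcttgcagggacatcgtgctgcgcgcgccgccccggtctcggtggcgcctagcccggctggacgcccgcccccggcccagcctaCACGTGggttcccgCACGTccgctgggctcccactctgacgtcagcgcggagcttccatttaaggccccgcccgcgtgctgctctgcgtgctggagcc
Of the 30 members with at least 1 window, 22 (73.3%) had the core, 9 of 15 enzymes (60%) and 9 of 10 hypoxia genes (90%). Among genes tested on the arrays 29% had it (2971 of 10254). Counted per window, since members have several, 25 of 44 member windows (56.8%) and 24.9% of the windows of tested genes held it. By class, 11 of 26 enzyme windows (42.3%) and 9 of 11 hypoxia gene windows (81.8%) held it. Pfkp, Pfkl and Tpi1 had none in the windows used. A match is a string of letters and no measured binding, and many of these genes are listed as hypoxia genes because such sites are known in them.

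The secreted product Stc1 fell after PMSG in both genotypes, the widest move of any member. Stc1 (stanniocalcin 1), a glycoprotein hormone made in ovarian theca and interstitial cells, read 98.3, 77.1 and 60.0 after PMSG and 458, 162 and 294 untreated in Pik3cd-/- ovaries. The Stc1 signal of Pik3cd+/- ovaries was 118, 134 and 84.7 after PMSG and 379.5, 210.2 and 502 untreated. After E2 it was 225, 228 and 219 in Pik3cd-/- and 273, 279.5 and 415 in Pik3cd+/- ovaries. All 6 PMSG arrays lay below all 12 others, and array 2 was the lowest untreated array in both genotypes. Stc1 fell by 1.75 ± 0.33 in Pik3cd-/- (padj 0.0122) and by 1.56 ± 0.33 in Pik3cd+/- ovaries (padj 0.00605). The interaction was -0.19 ± 0.46 (padj 0.922). The Pik3cd-/- call ended without Pik3cd-/- PMSG array 3 (padj 0.066) and in a fit of its groups alone, and the average over genotypes, -1.66 ± 0.23 (padj 0.000307), held in every setting.

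Adm (adrenomedullin), a vasodilator peptide, was called lower after PMSG in Pik3cd-/- ovaries. With Stc1 it made 2 of 29 members called lower there and none higher, where 0.684% of all genes were called lower. Adm read 119, 105 and 86.4 after PMSG and 187, 235 and 209 untreated in Pik3cd-/- ovaries. The Pik3cd+/- readings of Adm were 149, 111 and 98.9 after PMSG and 86.4, 87.0 and 149 untreated. After E2 Adm read 189, 115 and 127 in Pik3cd-/- and 75.8, 90.5 and 110.0 in Pik3cd+/- ovaries. The untreated Pik3cd-/- arrays stood above every PMSG array of either genotype, while the Pik3cd+/- groups overlapped. Adm fell by 0.97 ± 0.22 in Pik3cd-/- (padj 0.0268), against a difference of 0.17 ± 0.22 in Pik3cd+/- ovaries (padj 0.624). The difference between these effects was -1.14 ± 0.31, with an unadjusted p of 0.00191 and a padj of 0.359, and no gene of 12713 was called in that interaction (0% called). The Adm call ended without untreated Pik3cd-/- array 2 or 3 or any PMSG array of that genotype (padj up to 0.135), and without the 4 arrays that stood apart. Both tested Adm probe sets were called. Leaving out 1 array moved the count of members called in this comparison to 6 without Pik3cd+/- PMSG array 3, to 0 without Pik3cd-/- PMSG array 3, and to 1 without the other arrays just named. Without the 2 further arrays the count was 9, where 7.52% of all genes were called.

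Ddit4 (REDD1), an inhibitor of mTORC1 that stress and low oxygen induce, moved the other way. It read 1140.3, 1109 and 1186 after PMSG and 917, 901 and 935 untreated in Pik3cd-/- ovaries. Pik3cd+/- ovaries gave Ddit4 readings of 837, 877 and 1328 after PMSG and 606, 675 and 691 untreated. After E2 Ddit4 read 977, 867 and 989 in Pik3cd-/- and 827, 666 and 646 in Pik3cd+/- ovaries. PMSG and untreated arrays did not overlap in either genotype, and array 3 of Pik3cd+/- after PMSG was the highest of all. Ddit4 differed by 0.32 ± 0.14 in Pik3cd-/- ovaries (padj 0.224, not called) and rose by 0.59 ± 0.14 in Pik3cd+/- ovaries (padj 0.0103).

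P4ha2, a collagen prolyl 4-hydroxylase subunit, read 204, 179.9 and 199.7 after PMSG and 149.6, 120.0 and 152 untreated in Pik3cd-/- ovaries. Pik3cd+/- arrays read 211, 156 and 258 after PMSG and 147, 150.2 and 151 untreated. After E2 the P4ha2 readings were 103, 74.7 and 96.9 in Pik3cd-/- and 122, 127 and 85.2 in Pik3cd+/- ovaries, below every untreated array of the same genotype. So P4ha2 was ordered PMSG, untreated, E2 in both genotypes without overlap. Within a genotype its PMSG difference was not called (0.45 ± 0.17, padj 0.171, in Pik3cd-/- and 0.43 ± 0.17, padj 0.0896, in Pik3cd+/-). Averaged over genotypes it was called higher after PMSG, 0.44 ± 0.12 (padj 0.016), and lower after E2, -0.50 ± 0.12 (padj 0.0316), and both calls ended without the 4 arrays that stood apart. The E2 call also ended without any 1 of 6 arrays (padj up to 0.0722), namely untreated Pik3cd+/- array 1, 2 or 3, untreated Pik3cd-/- array 1, Pik3cd+/- E2 array 3 or Pik3cd-/- E2 array 2. The averaged PMSG comparison also called Hif1a, the oxygen-regulated HIF subunit, at 0.25 ± 0.08 (padj 0.0338) and Vegfa, the angiogenic growth factor, at 0.32 ± 0.11 (padj 0.04). Each of these lost its call when the mean of all its probe sets was used, without the 4 arrays and without the 2 further ones. Both also lost it without untreated Pik3cd+/- array 1 or 2, untreated Pik3cd-/- array 2, Pik3cd+/- PMSG array 3, or Pik3cd-/- PMSG array 2 or 3. Vegfa did so too without untreated Pik3cd-/- array 3, Pik3cd+/- PMSG array 2 or Pik3cd-/- PMSG array 1 (padj up to 0.0781 for Hif1a and 0.102 for Vegfa). In all, 4 of 11 hypoxia genes were called higher and 1 lower in the average over genotypes. Of all genes 8.46% were called higher there and 15.6% lower. Among the 4 higher ones, Ddit4 alone stayed called in every setting tried.

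Aldoc, the aldolase better known from brain, and Ndrg1, a gene induced by hypoxia and by differentiation, differed over 1.5-fold between group means without a call. Aldoc read 220.0, 154 and 159.8 after PMSG and 149, 227 and 154 untreated in Pik3cd-/- ovaries. In Pik3cd+/- ovaries it read 346, 210.1 and 348 after PMSG and 194, 251 and 133 untreated. After E2 Aldoc read 136, 122 and 177 in Pik3cd-/- and 184, 174 and 202 in Pik3cd+/- ovaries. Its groups overlapped between PMSG and untreated in both genotypes, and the Pik3cd+/- difference was 0.63 ± 0.23 (padj 0.0744). Ndrg1 read 290.5, 241 and 251 after PMSG and 416, 550.4 and 283 untreated in Pik3cd-/- ovaries. In Pik3cd+/- ovaries Ndrg1 read 353, 310.2 and 226 after PMSG and 289, 218 and 204 untreated. After E2 Ndrg1 read 374, 229.9 and 318 in Pik3cd-/- and 304, 309 and 345 in Pik3cd+/- ovaries. The Pik3cd-/- groups overlapped after PMSG and untreated only through untreated array 3, at 283, and the Pik3cd+/- groups overlapped too. Its PMSG difference was -0.61 ± 0.22 in Pik3cd-/- (padj 0.154) and 0.31 ± 0.22 in Pik3cd+/- ovaries (padj 0.358), with an interaction of -0.92 ± 0.31 (padj 0.402).

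**Figure D3:**
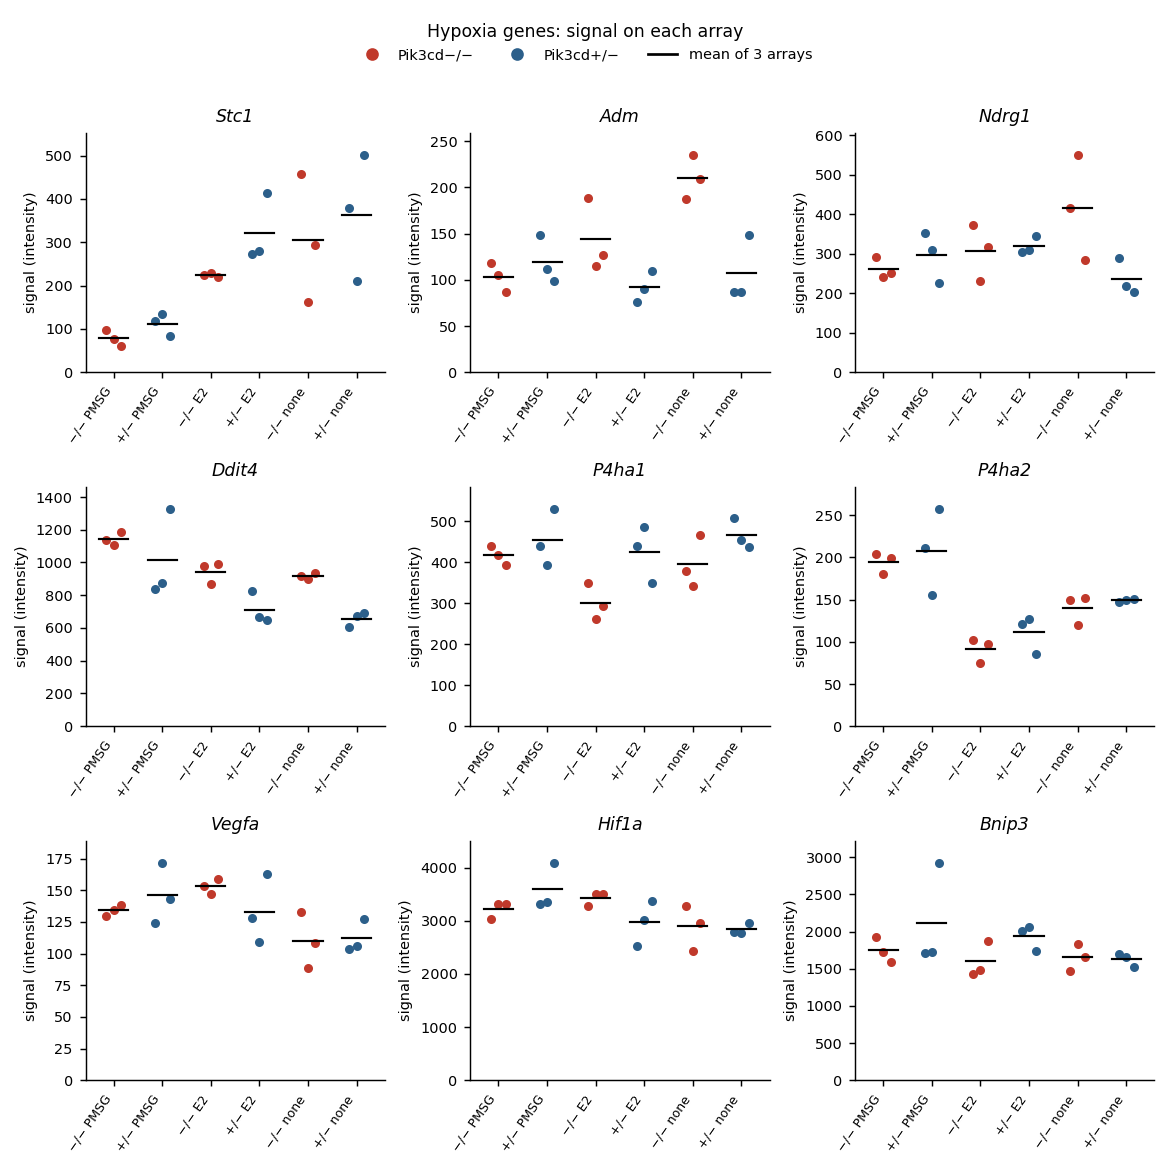
Signal (intensity units, axis from 0) of 9 hypoxia genes on each of the 18 arrays, coloured by genotype, with black bars at means of 3 arrays. Stc1 is lowest on the 6 PMSG arrays, Ddit4 red points lie above the blue untreated and E2 points, and P4ha2 is lowest after E2 in each genotype.

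None of the 5 tested transporters and regulators was called after PMSG, and the Pik3cd+/- differences of Slc2a1 and Slc2a3 were as large as those of the called enzymes. Slc2a1 (GLUT1), the basal glucose transporter, differed by 0.00 ± 0.15 in Pik3cd-/- (padj 0.999) and by 0.43 ± 0.15 in Pik3cd+/- ovaries (padj 0.0582). Slc2a3 (GLUT3) differed by 0.33 ± 0.25 in Pik3cd-/- and 0.44 ± 0.25 in Pik3cd+/- ovaries, and its highest reading was 434, on array 1 of Pik3cd+/- after PMSG. Slc16a1 (MCT1), which carries lactate and pyruvate, Pfkfb3, which makes the activator of phosphofructokinase, and Pdk1, which holds back pyruvate dehydrogenase, lay between -0.11 and 0.16 in Pik3cd-/- and between 0.06 and 0.22 in Pik3cd+/- ovaries. Slc16a3 (MCT4), the lactate exporter induced by hypoxia, was too dim for a test, at 29.7, 28.7 and 30.2 after PMSG and 19.5, 18.6 and 18.4 untreated in Pik3cd-/- ovaries. In Pik3cd+/- ovaries Slc16a3 read 20.7, 23.5 and 56.6 after PMSG and 17.7, 19.7 and 16.4 untreated, so that its untested PMSG readings lay above the untreated ones in both genotypes. Ankrd37 ranged from 25.7 to 42.1 over the 18 arrays.

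**Figure D4:**
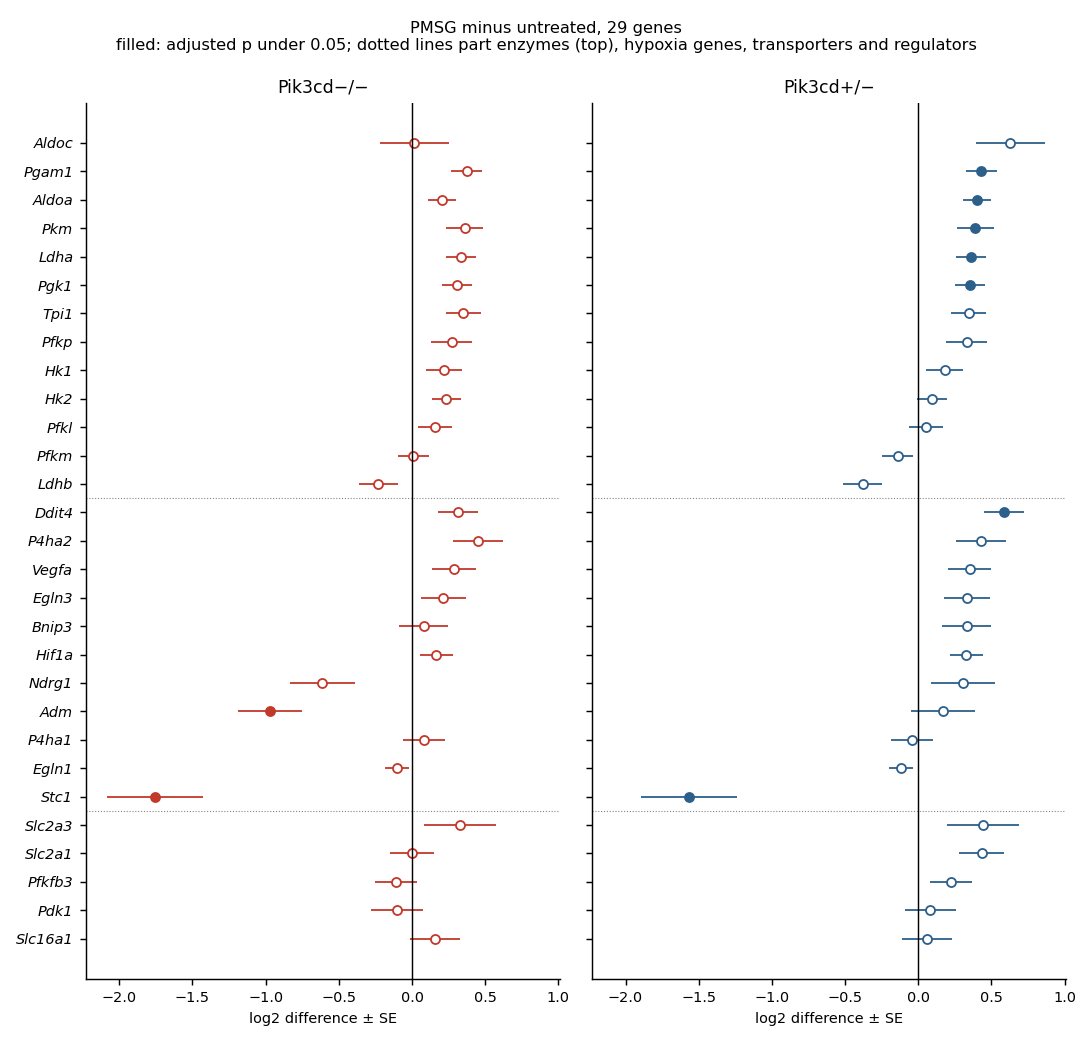
PMSG minus untreated (log2 difference ± SE) of the 29 tested members in Pik3cd-/- (left) and Pik3cd+/- (right), with filled points for padj under 0.05. Both panels use the same order of genes, and the enzyme points lie right of 0 in both apart from Ldhb and, in Pik3cd+/-, Pfkm, while Stc1 lies far left.

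Related genes outside the list were read for comparison. Of 25 other tested genes of glycolysis and pyruvate use, 3 were called higher and 2 lower after PMSG in Pik3cd+/- ovaries, with a median of 0.10. The higher ones were Pdk4, an inhibitor of pyruvate dehydrogenase induced in fasting, at 1.70 ± 0.26 (padj 0.00104), Pfkfb4, a relative of Pfkfb3, at 0.66 ± 0.14, and Tigar, which breaks down the activator that Pfkfb3 makes, at 0.38 ± 0.09. Pfkfb4 and Tigar were also called higher in Pik3cd-/- ovaries, 0.67 ± 0.14 (padj 0.0181) and 0.37 ± 0.09 (padj 0.0458). The lower ones in Pik3cd+/- ovaries were Bpgm and Ldhc, a lactate dehydrogenase subunit best known from germ cells. Of 27 other hypoxia genes 3 were called higher (Bhlhe40, Car12 and Hmox1) and 1 lower (Car9, -0.69 ± 0.16), with a median of 0.13. Among 15 tested citric acid cycle genes none was called, and their median was 0.068. Of 6 pentose phosphate genes, Pgd was called higher and Tkt lower.

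Markers of other cells moved with PMSG in Pik3cd+/- ovaries. Oocyte markers were called lower in 8 of 10 cases (median -0.92), with summed signals of 8561 to 9925 after PMSG and 16796 to 17966 untreated. Macrophage markers were called higher in 4 of 10 (median 0.93), at 2572 to 5125 after PMSG and 1868 to 2114 untreated. Of 7 proliferation markers 4 were called lower, at 5585 to 6875 after PMSG and 8516 to 9279.9 untreated. Of 7 theca and steroidogenic markers 4 were called higher and 2 lower, at 28032 to 37206 after PMSG and 16514 to 19217 untreated. Of 7 smooth muscle markers 2 were called higher, and of 8 granulosa markers 1 was higher and 1 lower. In Pik3cd-/- ovaries none of the oocyte or macrophage markers was called, and 3 theca markers were called higher. Of 8 granulosa markers 1 was called higher there and none lower. Their summed signal in Pik3cd-/- ovaries was 30070 to 32419 after PMSG and 17945 to 25902 untreated, without overlap. No marker had a group mean of 0. The part of these lists in the member changes was not tested.

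E2 moved no member past the threshold in either genotype. None of 29 members was called in Pik3cd-/- ovaries, where 0.0551% of all genes were, and none in Pik3cd+/- ovaries, where 1.62% were. By unadjusted limma p under 0.05, 7 members differed in Pik3cd-/- and 6 in Pik3cd+/- ovaries. The 3 largest differences in Pik3cd-/- ovaries were -0.58 ± 0.17 for P4ha2 (padj 0.232), -0.55 ± 0.22 for Adm (padj 0.285) and 0.47 ± 0.15 for Vegfa (padj 0.238). In Pik3cd+/- ovaries Hk2, the inducible hexokinase, came nearest, at 0.35 ± 0.10 (padj 0.0886), without overlap of its arrays. The enzyme median was -0.05 in Pik3cd-/- and 0.092 in Pik3cd+/- ovaries, against medians of -0.05 and 0.0035 over all genes. In the average over genotypes P4ha2 alone was called lower, where 2.31% of all genes were, and no member was called higher. The E2 and PMSG effects share the untreated arrays, so similar signs in the 2 are not independent.

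Several enzymes were lower in Pik3cd-/- ovaries, among them 2 phosphofructokinases and lactate dehydrogenase A, and Ldhb was higher. Averaged over the 3 states, a comparison added after the values were seen, 7 of 13 enzymes were called lower in Pik3cd-/- than in Pik3cd+/- ovaries and 1 higher. The lower ones were Pfkp, Ldha, Pfkl, Hk2, Aldoc, Pgk1 and Pgam1, and the higher one was Ldhb. Over all 29 members 9 were called lower and 3 higher, where 15.9% of all genes were called lower and 11.8% higher. The median was -0.20 over the enzymes, 0.021 over the hypoxia genes and -0.025 over all genes. Within single states fewer were called. After PMSG these were Pfkp (lower) and Ldhb (higher), where 1.05% of all genes were called lower and 3.08% higher. With same-numbered PMSG arrays paired as a block, both stayed called, Aldoc was called lower too, and 8.35% of all genes were called. After E2, 5 of 29 were called lower (Pfkp, Hk2, Ldha, Pfkl and P4ha1), where 12% of all genes were, and untreated Adm alone was called, higher, where 0.834% were. Of all genes called after E2, 28.8% were higher, against 43.9% after quantile normalization, and a fit of the E2 arrays alone called 1 member, Ldha. Leaving out 1 array gave 3 members after E2 without Pik3cd+/- E2 array 2 and 9 without Pik3cd+/- PMSG array 3. The count was also 9, 7 lower and 2 higher, without the 2 further arrays, where 25.4% of all genes were called. After PMSG, leaving out 1 array gave 0 without Pik3cd+/- PMSG array 1 or Pik3cd-/- PMSG array 2 or 3, and 1 without Pik3cd+/- PMSG array 2 or Pik3cd-/- PMSG array 1.

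Pfkp, the platelet type of phosphofructokinase, had the largest genotype difference of any member in the average over states. Adm and Ndrg1 differed more than Pfkp untreated, and Aldoc more after PMSG. Pfkp read 161, 152 and 133 in Pik3cd-/- and 221, 226 and 244 in Pik3cd+/- ovaries after PMSG, and 119, 106 and 142 in Pik3cd-/- and 256, 259.6 and 188 in Pik3cd+/- ovaries after E2. Untreated, Pfkp read 121, 127 and 117 in Pik3cd-/- and 209.6, 190.0 and 149 in Pik3cd+/- ovaries. The genotypes did not overlap in any of the 3 states, and over all states only the lowest Pik3cd+/- array, untreated array 3, reached into the Pik3cd-/- range. The difference was -0.61 ± 0.14 after PMSG (padj 0.0249), -0.89 ± 0.14 after E2 (padj 0.00191) and -0.55 ± 0.14 untreated (padj 0.0505, just missing the threshold). The average was -0.68 ± 0.08 (padj 6.11e-05), a fold of 0.625 on that scale, and it was called in every setting tried. The call after PMSG ended without any of 5 arrays of its groups (padj up to 0.0976). It also ended with the mean of all probe sets and without the 4 arrays that stood apart.

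Pfkl, the liver type of the same enzyme, read 379, 344 and 303 in Pik3cd-/- and 410.1, 366 and 467 in Pik3cd+/- ovaries after PMSG, and 322, 289 and 289.8 in Pik3cd-/- and 448, 455 and 373 in Pik3cd+/- ovaries after E2. Untreated, Pfkl read 299, 277 and 340.4 in Pik3cd-/- and 433, 395 and 366 in Pik3cd+/- ovaries. Its genotypes were apart after E2 and untreated and overlapped slightly after PMSG. The average difference was -0.38 ± 0.07 (padj 0.000948), and that after E2 -0.49 ± 0.12 (padj 0.0133). The second tested Pfkl probe set was also called lower in the average, at -0.24. Pfkm, the muscle type, was not called in any state. Its 3 Pik3cd-/- arrays lay above the Pik3cd+/- arrays after PMSG (0.20 ± 0.11) and below them after E2 (-0.16 ± 0.11), and overlapped them untreated (0.05 ± 0.11). The average was 0.03 ± 0.06 (padj 0.719) with a 95% interval of -0.10 to 0.16, and its signals ran from 256 to 386 over the 18 arrays. The after-E2 call of Pfkl ended without Pik3cd+/- E2 array 1 or 2 (padj up to 0.059) and without the 4 arrays.

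Hk2, which takes the first step from glucose, read 301, 293 and 262 in Pik3cd-/- and 293, 323 and 346 in Pik3cd+/- ovaries after PMSG, and 251, 273 and 265 in Pik3cd-/- and 411, 364 and 375 in Pik3cd+/- ovaries after E2. Untreated, Hk2 read 234, 209 and 286 in Pik3cd-/- and 291, 311 and 294 in Pik3cd+/- ovaries. The genotypes were apart after E2 and untreated, and overlapped after PMSG. Hk2 was lower by 0.53 ± 0.10 on the log2 scale after E2 (padj 0.00557) and averaged -0.33 ± 0.06 (padj 0.001). Hk1, the constitutive hexokinase, averaged 0.01 ± 0.07 (padj 0.902), with a 95% interval of -0.14 to 0.17. So of the 2 tested hexokinases and 3 phosphofructokinases, Hk2, Pfkp and Pfkl were called lower and Hk1 and Pfkm were not called.

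The 2 subunits of lactate dehydrogenase went opposite ways. Ldha read 2359.7, 2016 and 2134 in Pik3cd-/- and 2564, 2502 and 3461 in Pik3cd+/- ovaries after PMSG, and 1737, 1749 and 1922 in Pik3cd-/- and 2672, 2589.7 and 2401 in Pik3cd+/- ovaries after E2. Untreated, Ldha read 1773, 1578 and 1808 in Pik3cd-/- and 2204, 2196 and 2161 in Pik3cd+/- ovaries, and the genotypes did not overlap in any state. Ldhb read 5726, 6244 and 5661 in Pik3cd-/- and 3857, 3839.9 and 4089 in Pik3cd+/- ovaries after PMSG, and 6392, 6567 and 4320.1 in Pik3cd-/- and 4954, 4378 and 4258 in Pik3cd+/- ovaries after E2. Untreated, Ldhb read 6145, 8276 and 6428 in Pik3cd-/- and 5271, 5292 and 4794 in Pik3cd+/- ovaries. Its genotypes were apart after PMSG and untreated, and after E2 array 3 of Pik3cd-/-, the one with low oocyte genes (summed signal 15405, against 27125 and 28183 on its mates), fell among the Pik3cd+/- arrays. Without the 2 further arrays Ldhb was called higher after E2 too, where 25.4% of all genes were then called. The part of the oocyte genes was not tested. Ldha averaged -0.41 ± 0.06 (padj 0.000263) and Ldhb 0.44 ± 0.08 (padj 0.00086), and all 4 tested Ldhb probe sets were called, between 0.43 and 0.46. Both averages were called in every setting. The Ldha call after E2, -0.50 ± 0.10 (padj 0.00719), also held in every setting, while the Ldhb call after PMSG, 0.58 ± 0.13 (padj 0.026), ended without any of 5 arrays of its groups (padj up to 0.126).

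Other enzymes called in the average were Pgk1, Pgam1 and Aldoc. Pgk1 averaged -0.22 ± 0.06 (padj 0.0113), Pgam1 -0.20 ± 0.06 (padj 0.023) and Aldoc -0.39 ± 0.14 (padj 0.0423). Of these, Pgk1 was called in every setting, Pgam1 lost its call without Pik3cd-/- E2 array 1 (padj 0.0504) and Aldoc without any of 13 arrays, without the 4 arrays, without the 2 further ones, with no filter and with the replicate block. Tpi1 at -0.17 ± 0.07, Pkm at -0.14 ± 0.07 and Aldoa at -0.05 ± 0.05 were not called. Pdk1 averaged -0.31 ± 0.10 (padj 0.0363), a call that ended without any of 10 arrays (padj up to 0.0774), without the 2 further arrays and with the probe set of highest variance (padj 0.369). The signals of Pdk1 ran from 194 to 428, and those of Tpi1 from 1806 to 3440.2, over the 18 arrays. Transporters were not called by genotype in any state: Slc2a1 ranged from 269 to 479, Slc2a3 from 132 to 434, Slc16a1 from 863 to 1868 and the regulator Pfkfb3 from 102 to 213.

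The hypoxia genes held no shared direction by genotype. With every probe set fitted, both tested Adm probe sets were higher in untreated Pik3cd-/- than in untreated Pik3cd+/- ovaries, and 1 of the 2 was called. By the probe set that stood for the gene, Adm was called higher there by 0.95 ± 0.22 (padj 0.0356), with readings that did not overlap, as given above. That call ended without any 1 of 5 arrays (untreated Pik3cd+/- array 1 or 2, untreated Pik3cd-/- array 1 or 2, or Pik3cd+/- E2 array 2; padj up to 0.158) and without the 4 arrays together, with the replicate number as a block and in a fit of the untreated arrays alone. Leaving out 1 array at a time moved the count of members called there between 0 (without any of those 5) and 4 (without untreated Pik3cd-/- array 3 or Pik3cd+/- PMSG array 3). Without the 2 further arrays the count was 6, where 6.97% of all genes were called. Adm averaged 0.45 ± 0.13 (padj 0.0153) and Ddit4 0.36 ± 0.08 (padj 0.00369), both called in every setting. The Adm average mixed directions. Adm was higher in Pik3cd-/- ovaries untreated and after E2, but after PMSG its mean was 103.5 in Pik3cd-/- and 119.7 in Pik3cd+/- ovaries. Ddit4 was higher in Pik3cd-/- ovaries in all 3 states. Ddit4 readings were apart between genotypes after E2 and untreated. P4ha1, the other alpha subunit gene, read 439.5, 418 and 393 in Pik3cd-/- and 440.2, 393 and 531 in Pik3cd+/- ovaries after PMSG, and 351, 261 and 294 in Pik3cd-/- and 440.0, 486 and 349.8 in Pik3cd+/- ovaries after E2. Untreated, P4ha1 read 380.3, 342 and 466 in Pik3cd-/- and 508, 455 and 437 in Pik3cd+/- ovaries. Its genotypes overlapped in every state, and it was called lower after E2, -0.48 ± 0.14 (padj 0.035), a call lost without Pik3cd+/- E2 array 1 or 2 or Pik3cd-/- E2 array 2 or 3 (padj up to 0.145), after quantile normalization and without the 4 arrays. Its average was called lower too, -0.28 ± 0.08 (padj 0.0228), a call that ended without untreated Pik3cd+/- array 1, Pik3cd+/- E2 array 2, the 4 arrays or the 2 further ones.

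The oxygen sensors were not called by genotype. Hif1a averaged 0.03 ± 0.06, with signals of 2434 to 4088. Egln1, the main prolyl hydroxylase, averaged 0.02 ± 0.05 with a 95% interval of -0.08 to 0.12 and signals of 645 to 853, and Egln3, itself a HIF target, 0.11 ± 0.09 with signals of 38.0 to 66.6. Neither were the HIF targets Vegfa (0.02 ± 0.09, signals of 88.4 to 172) and the mitophagy receptor Bnip3 (-0.17 ± 0.10, signals of 1435 to 2926). Ndrg1 was higher by 0.76 in untreated Pik3cd-/- ovaries without a call (padj 0.0756) and averaged 0.17 ± 0.13. Stc1 averaged -0.41 ± 0.19 (padj 0.115) and P4ha2 -0.14 ± 0.10 (padj 0.304).

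**Figure D5:**
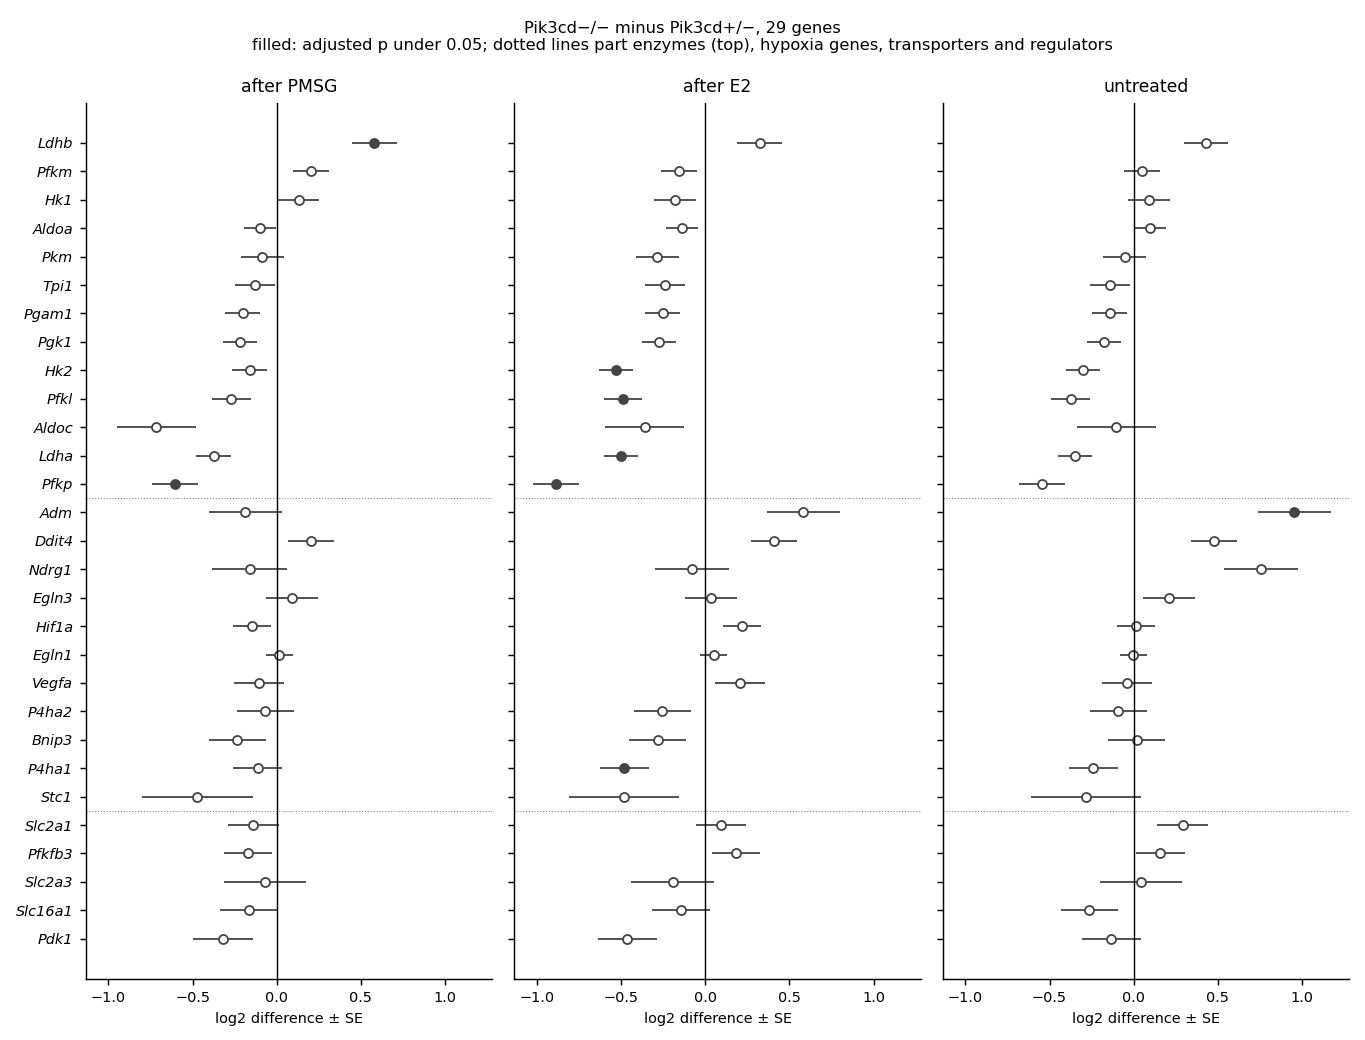
Pik3cd-/- minus Pik3cd+/- (log2 difference ± SE) of the 29 tested members after PMSG, after E2 and untreated, with filled points for padj under 0.05. The enzymes from Pgam1 down to Pfkp lie left of 0 in all 3 panels and Ldhb right of 0, while the hypoxia genes fall on both sides.

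No member was called in either interaction of genotype and treatment, and neither was any other gene (0% called in each), with all arrays. In the E2 interaction all 13 enzyme estimates were below 0, between -0.34 and -0.10, with a median of -0.21 against -0.049 over all genes. Among single members, 1 had an unadjusted p under 0.05 there, Ndrg1 at -0.84 ± 0.31 (padj 0.66), and 2 in the PMSG interaction, Adm and Ndrg1. A difference between genotypes in how the members answered PMSG or E2 was therefore not detected with 3 arrays per group, which does not show that there was none.

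Beside the list, 4 of 27 other hypoxia genes were called lower in Pik3cd-/- ovaries after E2 (Epas1, Ero1a, Fam162a and Plod2) and none higher. That is 14.8% of them, near the 12% of all genes called lower there. Ero1a, an oxidase of the endoplasmic reticulum, averaged -0.32 ± 0.06 over the states and Plod2, a collagen lysyl hydroxylase, -0.61 ± 0.10. Of 25 other glycolysis and pyruvate genes, Pdk4, Pdhb and Tigar were called lower and Bpgm higher after E2, and the 3 lower ones make 12% of that list, the same share as over all genes. Pdk4 was also lower after PMSG, -1.18 ± 0.26 (padj 0.0208), and Bpgm, which makes 2,3-bisphosphoglycerate, higher, 0.68 ± 0.15 (padj 0.0197). Of 6 pentose phosphate genes, Pgd and Pgls were called lower after E2. Suclg1 was called lower among 15 citric acid cycle genes.

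Oocyte markers moved with genotype in every state. All 10 were called higher in Pik3cd-/- ovaries in the average (median 1.03), 9 of them after PMSG, 10 after E2 and 5 untreated. Their summed signal was 19017 to 21606 in Pik3cd-/- and 8561 to 9925 in Pik3cd+/- ovaries after PMSG, 15405 to 28183 in Pik3cd-/- and 10875 to 12369 in Pik3cd+/- ovaries after E2, and 24487 to 29551 in Pik3cd-/- and 16796 to 17966 in Pik3cd+/- ovaries untreated. Of 8 granulosa markers 2 were called higher and 2 lower in the average. Their summed signal was 30070.0 to 32419 in Pik3cd-/- and 24586 to 40403 in Pik3cd+/- ovaries after PMSG, 20063 to 26786 in Pik3cd-/- and 24664 to 26726 in Pik3cd+/- ovaries after E2, and 17945 to 25902 in Pik3cd-/- and 25619 to 26906 in Pik3cd+/- ovaries untreated. Of 7 proliferation markers 2 were higher and 4 lower. No macrophage, endothelial, theca or smooth muscle marker was called in the average. The share of the genotype differences in Ldhb, Pfkp, Ldha and the other members that goes with these markers was not tested.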

How the data were processed

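Ovary RNA of 18 samples in 6 groups was read on Affymetrix arrays, and the deposited table holds 1 linear intensity per probe set and array, made with MAS5 per the submitters' processing notes. How far the authors rescaled the arrays is not given in the sources used here beyond that, and the labels call the 3 samples of a group biological replicates. Of 45101 probe sets, 64 were controls, 932 named several genes and 9160 none in the platform annotation, and 34945 named 1 gene, updated through its Entrez ID to the RefSeq symbol. The brightest probe set over all arrays stood for a gene, for 18193 genes, and all 18 columns were used.

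The deposited intensities were taken to log2(signal + 8.58), where 8.58 is the 10th percentile of all values, with no further scaling. Genes with at least 1 group mean above the median of 5.87 on that scale were kept, 12713 in all. One limma model (limma 3.58.1 in R 4.3.3) with a mean for each of the 6 groups gave 9 comparisons, and 3 averages over genotypes or states were added after the values were seen. It had 12 residual degrees of freedom plus 3.66 from the moderated prior, p-values were two-sided and adjusted by Benjamini-Hochberg over the 12713 genes, and a call is an adjusted p under 0.05. The script was tested on simulated data. Members called in any of the 9 comparisons, or differing at least 1.5-fold between group means, have every array value given, and Slc16a3 was added after its values were seen. The other members are given by range. The members and lists were chosen with earlier results of these data known. The number of arrays limits the precision.

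Alternatives were 2 other pseudocounts, no filter, a stricter filter, quantile normalization, a prior without trend, the groups of the comparison alone, the replicate number as a block, the probe set of highest variance, the mean of all probe sets, and each array left out. Leaving out the 4 arrays that stood apart, or the 2 further ones, and pairing the PMSG arrays were chosen after seeing the data. The labels give each group numbers 1 to 3 and no shared origin. Deviations of same-numbered arrays correlated over 0.1 in all 3 pairs (r from 0.251 to 0.295) only between the genotypes after PMSG, so the pairing there comes from the data. Promoters are RefSeq windows on GRCm38.p6. Figures were drawn with matplotlib 3.10.9 in Python 3.11.15.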

Additional observations from a re-analysis of the deposited data

How the results depend on the processing

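Of the 43 calls of members, 19 held under all 13 alternatives that could be run for them and each of 18 arrays left out, and none reversed. Within the 9 comparisons only Aldoa and Stc1 after PMSG in Pik3cd+/- ovaries and Ldha between genotypes after E2 were among these 19. The rest of the 19 came from the averages added after the values were seen. Of the other results, the cause of each move below was not tested. The count of members called after PMSG in Pik3cd+/- ovaries (7) was 12 after quantile normalization, and 2 to 9 with 1 array left out. After PMSG in Pik3cd-/- ovaries the count (2) was 1 in a fit of its groups alone or without the 4 arrays, 9 without the 2 further arrays, and 0 to 6 with 1 array left out. After E2 in Pik3cd+/- ovaries (0) it was 1 in a fit of its groups alone and with the mean of all probe sets. Between untreated genotypes (1) it was 2 with the stricter filter or the mean of all probe sets, 4 after quantile normalization, 0 in a fit of its groups alone or without the 4 arrays, 6 without the 2 further arrays, and 0 to 4 with 1 array left out. Between genotypes after PMSG (2) it was 1 without the 4 arrays and 0 to 3 with 1 array left out, and after E2 (5) it was 1 in a fit of its groups alone, 9 without the 2 further arrays and 3 to 9 with 1 array left out. In the average after PMSG (13) it was 8 without the 4 arrays and 9 to 14 with 1 array left out. In the average after E2 (1) it was 3 after quantile normalization or with the probe set of highest variance, 2 with the mean of all probe sets, 0 in a fit of its groups alone or without the 4 arrays, and 0 to 3 with 1 array left out. The genotype average kept 9 to 13 members with 1 array left out.

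The medians of the hypoxia genes, over 11 genes, moved most. After PMSG in Pik3cd+/- ovaries the median was 0.33, against 0.25 with a pseudocount of 64 and 0.24 with the mean of all probe sets. After PMSG in Pik3cd-/- ovaries it was 0.083, and 0.045 to 0.19 with 1 array left out. After E2 it was -0.053 in Pik3cd-/- ovaries, against -0.31 with the stricter filter, -0.145 with the probe set of highest variance, -0.17 without the 2 further arrays and -0.17 to -0.048 with 1 array left out. After E2 in Pik3cd+/- ovaries it was 0.054, against -0.10 with the stricter filter and -0.0092 to 0.15 with 1 array left out. Between genotypes it was 0.015 untreated (-0.0069 to 0.096 with 1 array left out), -0.11 after PMSG (-0.19 to 0.0022, the highest also without the 2 further arrays) and 0.035 after E2 (-0.11 to 0.11, -0.076 without the 2 further arrays, and -0.079 with the stricter filter or the probe set of highest variance). In the PMSG interaction it was -0.16, against -0.068 with a pseudocount of 64, -0.27 without the 4 arrays, -0.067 without the 2 further ones and -0.20 to -0.067 with 1 array left out. In the E2 interaction it was -0.17, against -0.092 with the mean of all probe sets, -0.065 without the 4 arrays and -0.22 to -0.049 with 1 array left out. In the average after PMSG it was 0.21, against 0.12 with no filter, 0.019 with the stricter filter, 0.078 without the 2 further arrays and 0.078 to 0.27 with 1 array left out. In the average after E2 it was 0.012, against -0.073 with the stricter filter and -0.064 to 0.10 with 1 array left out. The enzyme median after PMSG was 0.34 in Pik3cd+/- ovaries (0.21 to 0.42 with 1 array left out, the lowest without PMSG array 3 and without the 2 further arrays), 0.30 in the average (0.17 with the mean of all probe sets) and -0.027 in the interaction (-0.093 to 0.12 with 1 array left out, the highest also without the 2 further arrays).

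Same-numbered arrays were alike in only 1 of 15 pairs of groups, the Pik3cd-/- and Pik3cd+/- arrays after PMSG, where pairing them as a block called 3 members against 2. Elsewhere not all 3 correlations were over 0.1, as for Pik3cd+/- arrays after E2 and untreated (r from -0.0183 to 0.282). With 3 arrays per group and no origin in the labels, whether the numbers pair those samples cannot be told. Of 45 pairs of same-numbered arrays, 11 had correlated deviations over 0.1 (r from -0.344 to 0.338), and 5 of 18 arrays correlated best with their own number. With the replicate number as a block the counts were 0 untreated between genotypes, 2 in the average after E2, 8 after PMSG in Pik3cd+/- ovaries and 11 in the genotype average. Counts of all genes called moved more than 1.5 times in these comparisons. After PMSG they were 2255 in Pik3cd+/- ovaries (870 to 2981 over the alternatives) and 304 in Pik3cd-/- ovaries (86 to 956), and after E2 206 (33 to 779) in Pik3cd+/- and 7 (0 to 24) in Pik3cd-/- ovaries. Between genotypes they were 276 untreated (1 to 886), 525 after PMSG (82 to 1062) and 2141 after E2 (97 to 3226), and 0 in each interaction (up to 17 for PMSG and 83 for E2). Over the averages they were 3053 after PMSG (1707 to 3642) and 568 after E2 (145 to 974). After E2 in Pik3cd-/- ovaries 33.3% of 3 calls were higher after quantile normalization and 14.3% of 7 without it. That normalization moved no median of all genes by over 0.1. Dim genes such as Slc16a3 and Ankrd37 were below the filter.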
